A study of Mus musculus with 24 samples.

Results

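The genes described here are 9 genes of adipocyte lipolysis and its beta-adrenergic control, found by their symbols. They are Adrb1, Adrb3, Prkar2b, Pnpla2, Lipe, Mgll, Abhd5, G0s2 and Aqp7, 9 of the 24825 genes listed in each library. mRNA was sequenced in immortalised mouse cells of the stromal vascular fraction of the inguinal fat depot, which mixes adipocyte precursors with other cells. The study asked whether the transcription factor NFIA, of the nuclear factor I family, needs a C-terminal proline-rich segment, pro#3, to restore adipocyte differentiation after Nfia is targeted. Cells were collected before (day 0) and 7 days after the start of differentiation with a cocktail for thermogenic adipocytes, in 4 cell types with 3 libraries each, 24 libraries in 8 groups.

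All 4 cell types came from mice with Nfia flox/flox alleles, in which exon 2 is flanked by loxP sites, and all carried SV40 large T antigen from a retrovirus. The ctrl cells had received an empty retroviral vector and the Cre cells one that expresses Cre recombinase. The Cre_NFIA cells carried Cre together with retroviral full-length NFIA with a FLAG tag, and the Cre_deltapro#3 cells carried Cre together with a FLAG-tagged NFIA without pro#3. The differentiated cells had been given IBMX at 0.5 mM, indomethacin at 125 nM, dexamethasone at 1 µM, insulin at 850 nM, T3 at 1 nM and rosiglitazone at 1 µM for 48 hours, and then insulin, T3 and rosiglitazone alone. IBMX blocks phosphodiesterases and so raises cAMP, and rosiglitazone activates PPARγ; every day 7 group had received both. The retroviral vector and not the Nfia promoter drives both transgenes, and how many mice or clones the immortalised cells stand for is not given in the sources used here. The labels do not say whether libraries of a group came from separate cultures, so p-values measure the spread between these libraries, which may be technical.

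Lipolysis is the stepwise breakdown of stored triglyceride to fatty acids and glycerol. Catecholamines bind beta-adrenergic receptors on the adipocyte, the receptors raise cAMP, and cAMP releases the catalytic subunits of protein kinase A from their regulatory subunits. The kinase phosphorylates the lipid droplet protein perilipin and hormone-sensitive lipase, perilipin then frees the co-activator ABHD5, and ABHD5 activates adipose triglyceride lipase, which G0S2 inhibits. Adipose triglyceride lipase, hormone-sensitive lipase and monoglyceride lipase (encoded by Pnpla2, Lipe and Mgll) cleave the fatty acids off in that order, and the glycerol leaves through the channel aquaporin 7.

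Levels are given in FPKM (counted fragments scaled to a kilobase of gene and to the library total) and in the order of replicates 1, 2 and 3. Library totals were 7732829 to 14622189 reads, so that the floor of 3 reads was 0.205 to 0.388 RPM, which covers counting error only. Differences were tested with limma on log2(FPKM + 1) over the 12640 genes with at least 1 FPKM in at least 3 libraries, and a gene passed at an adjusted p under 0.05. Values in parentheses after a comparison are the log2 fold change on that scale ± its SE with 3 libraries a group. The added 1 makes the changes of low genes look smaller than they were. All 9 genes were among those tested. Adrb1 entered with exactly 3 libraries at or over 1 FPKM, 1 in ctrl at day 7 and 1 in Cre_NFIA at each day, so it was tested only because of the groups in which it was higher.

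The targeted gene gave no check of the label Cre. At day 7 the ctrl libraries held Nfia at 9.81, 9.15 and 9.70 FPKM and the libraries labelled Cre at 10.7, 10.1 and 9.49 FPKM, and a gene-level value does not isolate the floxed exon. In Cre_NFIA it was at 97.1, 89.0 and 83.9 FPKM and in Cre_deltapro#3 at 111, 99.5 and 95.0 FPKM, transgene reads included. The study reported efficient recombination in Cre-expressing cells and a nearly complete loss of Nfia mRNA by RT-qPCR and of NFIA protein. Those assays are not analysed here, and in these libraries the directions given for Cre rest on the label.

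Markers of adipocytes moved together with the lipolysis genes at day 7. The summed FPKM of 10 adipocyte markers was 22229.5 to 25738 in ctrl, 4446 to 9527 in the libraries labelled Cre, 21183 to 21374 in Cre_NFIA and 851 to 2158 in Cre_deltapro#3. Of these markers 9 of 10 were tested, and leptin (Lep) had no read in any Cre_deltapro#3 library of day 7. In bulk RNA, fewer adipocytes and less of each mRNA per adipocyte cannot be told apart, and the part of the marker change in the results below was not tested. The summed FPKM of 6 precursor and stromal markers was 460 to 551 in ctrl and Cre_NFIA and 1034 to 1430 in Cre and Cre_deltapro#3. The summed FPKM of 4 thermogenic markers at day 7 was 12.04 to 16.5 in ctrl, 0.414 to 1.01 in Cre, 114 to 122 in Cre_NFIA and 0.379 to 0.656 in Cre_deltapro#3. The 2 of these that were tested, Cox8b and Ppargc1a, were lower in Cre than in ctrl and higher in Cre_NFIA than in Cre and than in ctrl, and did not pass in Cre_deltapro#3 against Cre, while Ucp1 was at or below 1.55 FPKM and Cidea at or below 0.646 FPKM in every library. The summed FPKM of 5 skeletal muscle markers at day 7 was 3.27 to 4.97 in ctrl, 2.22 to 3.797 in Cre, 6.13 to 7.10 in Cre_NFIA and 2.53 to 4.52 in Cre_deltapro#3. Most of it came from Acta1. The 2 of these markers that were tested went opposite ways in Cre_NFIA against Cre. Acta1 was higher (1.38 on the log2 scale, limma adjusted p = 2.66e-05) and Des was lower (-0.39, limma adjusted p = 0.0374). Ckm had at most 1 read a library and Myh4 none. The part of both lists in the results was not tested. The leukocyte marker Adgre1 had no read in any of the 24 libraries, 5 leukocyte markers summed to at most 11.3 FPKM, and 4 endothelial markers to at most 10.2 FPKM.

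Promoter sequences are shown first for 4 members, Pnpla2 and G0s2 because they encode a lipase and its inhibitor that moved together, Aqp7 because it holds both motifs marked here, and Adrb1 because it stayed low in every group. Each is the 250 bases before a RefSeq transcription start, taken from the RefSeq promoter table for GRCm38.p6 and located by an exact and single match in NCBIM37, the assembly that mm9 names, and written 5′ to 3′ on the gene's strand. Capitals mark TTGGC, the single-arm site of nuclear factor I proteins, and AGGTCA, the core site of nuclear receptors such as PPARγ, on either strand (GCCAA and TGACCT on the other), and the windows of Pnpla2 and G0s2 hold neither.
Adrb1, chr19:56796357-56796606, plus strand: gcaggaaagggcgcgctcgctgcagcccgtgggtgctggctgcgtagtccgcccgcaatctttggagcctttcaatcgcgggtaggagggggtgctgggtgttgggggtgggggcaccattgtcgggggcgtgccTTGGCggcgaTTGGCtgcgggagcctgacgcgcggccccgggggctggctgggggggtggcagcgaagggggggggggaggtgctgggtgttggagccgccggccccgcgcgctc
Pnpla2, chr7:148640837-148641086, plus strand: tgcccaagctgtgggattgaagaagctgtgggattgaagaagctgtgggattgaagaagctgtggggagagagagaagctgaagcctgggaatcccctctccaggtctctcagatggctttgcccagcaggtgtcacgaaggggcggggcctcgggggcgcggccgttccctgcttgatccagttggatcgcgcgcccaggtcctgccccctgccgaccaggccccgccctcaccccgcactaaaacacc
G0s2, chr1:195099383-195099632, minus strand: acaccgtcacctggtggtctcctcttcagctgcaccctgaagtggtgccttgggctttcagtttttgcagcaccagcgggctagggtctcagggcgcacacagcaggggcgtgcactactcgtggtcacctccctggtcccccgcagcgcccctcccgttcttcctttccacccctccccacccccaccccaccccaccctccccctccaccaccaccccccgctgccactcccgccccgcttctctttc
Aqp7, chr4:40995170-40995419, minus strand: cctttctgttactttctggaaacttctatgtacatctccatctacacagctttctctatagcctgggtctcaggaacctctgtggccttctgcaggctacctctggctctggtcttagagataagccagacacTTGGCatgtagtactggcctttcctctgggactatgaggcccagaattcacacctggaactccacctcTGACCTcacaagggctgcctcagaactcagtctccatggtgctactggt

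The table held 12 windows for 8 of the 9 members. TTGGC occurred in 3 of these 8 members (Adrb1, Lipe and Aqp7), beside 41.51% of all 32851 mouse promoters of the same length. In Adrb1 it occurred at 115 and 105 bases before the start. AGGTCA occurred in 2 of 8 (Abhd5 and Aqp7), beside 14.02% of all promoters. The full nuclear factor I site (TTGGC and GCCAA with 5 bases between), the cAMP response element TGACGTCA, the direct repeat of AGGTCA with 1 base between and the palindrome TTGCGCAA of C/EBP proteins were found in 0 of 8, beside 0.0365%, 1.546%, 0.0335% and 0.164% of all promoters. The shorter TGACG, which is part of TGACGTCA, occurred in 3 of 8 (Adrb1, Abhd5 and G0s2), beside 17.77%. The counts of 8 are genes with a match in any of their windows, while the percentages are per window. By window TTGGC was in 4 of 12, AGGTCA in 3 of 12 and TGACG in 3 of 12. These are matches of letters in short windows, and no binding was measured here.

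**Figure D1:**
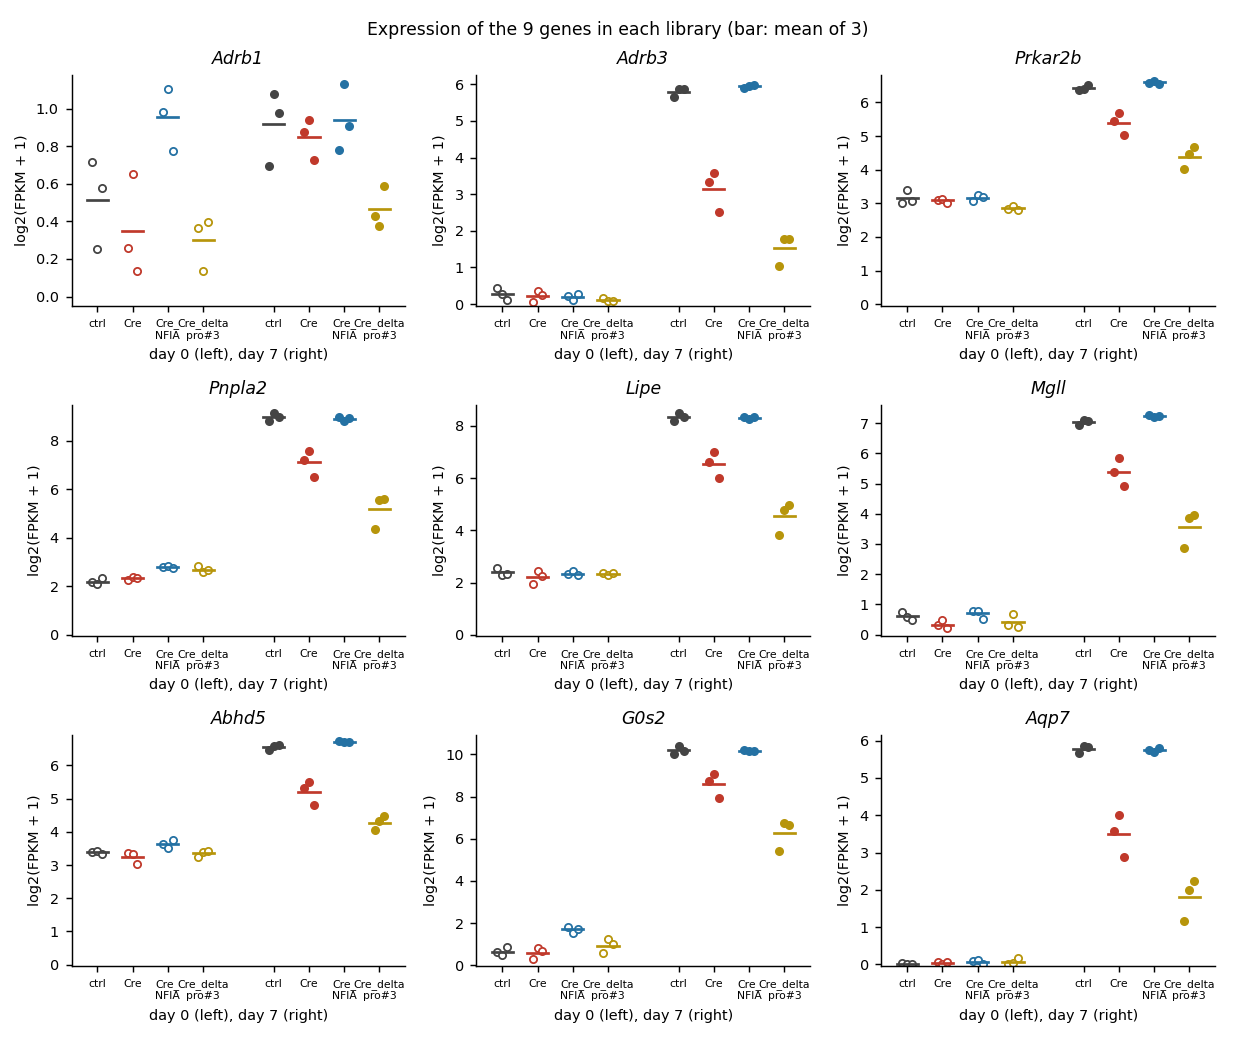
Level of each of the 9 genes as log2(FPKM + 1) in the 24 libraries, with day 0 on the left (open points) and day 7 on the right (filled points) of each panel and a bar at the mean of 3 libraries. The 8 genes other than Adrb1 have ctrl and Cre_NFIA at the top at day 7, Cre between and Cre_deltapro#3 lowest. The means of Adrb1 have this order too, but it stays near or below 1 FPKM in every group and its ctrl, Cre and Cre_NFIA libraries overlap. Axes differ between panels.

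The receptor genes came first in the order of the pathway, and they differed in level and in how far the groups lay apart. Adrb3 encodes the beta3-adrenergic receptor, the main form of rodent fat cells, and lies on chromosome 8 (28336248 to 28340060, minus strand, NCBIM37). Its level at day 7 was 49.0, 57.3 and 57.7 FPKM in ctrl, 9.04, 11.1 and 4.70 FPKM in Cre, 58.8, 61.1 and 61.8 FPKM in Cre_NFIA and 1.04, 2.43 and 2.40 FPKM in Cre_deltapro#3. No pair of these groups overlapped. Its mean was 6.61-fold lower in Cre than in ctrl (-2.65 ± 0.25, limma adjusted p = 3.97e-06) and 7.33-fold higher in Cre_NFIA than in Cre (2.80 ± 0.25, limma adjusted p = 1.38e-06). In Cre_deltapro#3 it was 4.23-fold lower than in Cre (-1.62 ± 0.25, limma adjusted p = 0.00127) and 31.0-fold lower than in Cre_NFIA (-4.42 ± 0.25, limma adjusted p = 2.31e-08), the largest fold difference of FPKM between these groups among the 9 genes. Of the 12640 genes tested, 16 had a lower log2 fold change than Adrb3 in Cre against ctrl.

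Adrb1, which encodes the beta1-adrenergic receptor, stayed close to the detection floor (chromosome 19, 56796862 to 56799352, plus strand). Its day 7 levels were 0.621, 1.11 and 0.967 FPKM in ctrl, 0.837, 0.921 and 0.654 FPKM in Cre, 0.717, 1.19 and 0.879 FPKM in Cre_NFIA and 0.344, 0.299 and 0.506 FPKM in Cre_deltapro#3, from 9 to 37 reads a library. The first 3 groups overlapped and Cre_deltapro#3 lay below them. It passed in Cre_deltapro#3 against Cre_NFIA (-0.48 ± 0.13, limma adjusted p = 0.00735), and did not pass against Cre (-0.38 ± 0.13, limma adjusted p = 0.0708). Cre differed from ctrl by -0.07 (95% interval -0.36 to 0.22, limma adjusted p = 0.686) and Cre_NFIA from Cre by 0.09 (95% interval -0.20 to 0.39, limma adjusted p = 0.574), intervals that leave room for a modest change in either direction.

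Prkar2b encodes the RIIβ regulatory subunit of protein kinase A, the form that fat and brain express most (chromosome 12, 32643341 to 32746161, minus strand). The libraries held it at 82.6, 84.0 and 90.7 FPKM in ctrl, 43.1, 50.4 and 31.9 FPKM in Cre, 95.6, 98.7 and 93.3 FPKM in Cre_NFIA and 15.3, 20.9 and 24.5 FPKM in Cre_deltapro#3 at day 7. The 4 groups did not overlap. Prkar2b was lower in Cre than in ctrl (-1.04 ± 0.16, limma adjusted p = 0.000181), higher in Cre_NFIA than in Cre (1.20 ± 0.16, limma adjusted p = 4.63e-05) and lower in Cre_deltapro#3 than in Cre (-1.01 ± 0.16, limma adjusted p = 0.00161). Among the 8 genes that passed in Cre against ctrl this was the smallest change on the log2 scale, and it came from the second highest starting level at day 0 among the 9 genes, after Abhd5. FPKM is a value per length, so genes can be set against each other within a library. Of the summed FPKM of the 4 regulatory subunit genes (Prkar1a, Prkar1b, Prkar2a and Prkar2b), Prkar2b made up 45.7, 48.0 and 49.3% in ctrl, 25.3, 29.98 and 19.9% in Cre, 51.9, 52.6 and 49.9% in Cre_NFIA and 10.5, 13.7 and 15.2% in Cre_deltapro#3 at day 7, against 5.81 ± 0.587% in ctrl at day 0 (SD, n = 3). Over the same comparison of Cre_NFIA with Cre at day 7, Prkar1a (-0.51 ± 0.05, limma adjusted p = 4.40e-06) was lower and the catalytic subunit gene Prkaca (0.52 ± 0.07, limma adjusted p = 4.10e-05) higher, whereas the catalytic subunit gene Prkacb was lower (-0.50 ± 0.08, limma adjusted p = 0.000129).

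The 3 lipase genes moved together. Pnpla2, the gene of adipose triglyceride lipase (chromosome 7, 148641097 to 148646642, plus strand), had 446, 557 and 505 FPKM in ctrl, 145, 190.5 and 90.8 FPKM in Cre, 508, 447 and 486 FPKM in Cre_NFIA and 19.6, 46.2 and 47.5 FPKM in Cre_deltapro#3 at day 7. The ctrl and Cre_NFIA libraries overlapped, and the lowest of these 6 was more than every library of Cre, which in turn lay above every library of Cre_deltapro#3. Pnpla2 was 3.53-fold lower in Cre than in ctrl (-1.87 ± 0.31, limma adjusted p = 0.000260), 3.38-fold higher in Cre_NFIA than in Cre (1.81 ± 0.31, limma adjusted p = 0.000274) and 3.77-fold lower in Cre_deltapro#3 than in Cre (-1.92 ± 0.31, limma adjusted p = 0.00155).

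Lipe, the gene of hormone-sensitive lipase, lies on the same chromosome (26164546 to 26183729, minus strand). It reached 289, 357 and 321 FPKM in ctrl, 97.2, 126 and 63.3 FPKM in Cre, 319, 307 and 323 FPKM in Cre_NFIA and 13.3, 26.7 and 30.7 FPKM in Cre_deltapro#3 at day 7. The order and the overlaps were those of Pnpla2. The changes were -1.79 for Cre relative to ctrl (SE 0.27, limma adjusted p = 0.000152), 1.77 for Cre_NFIA against Cre (SE 0.27, limma adjusted p = 0.000133) and -1.997 for Cre_deltapro#3 against Cre (SE 0.27, limma adjusted p = 0.000801) on the log2 scale.

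Mgll, whose product takes the last fatty acid off (chromosome 6, 88674406 to 88778354, plus strand), was at 121, 138 and 133 FPKM in ctrl, 40.4, 55.9 and 29.2 FPKM in Cre, 152, 147 and 151 FPKM in Cre_NFIA and 6.37, 13.5 and 14.7 FPKM in Cre_deltapro#3. The 4 groups did not overlap, and Cre_NFIA was above ctrl. That last difference did not pass, whereas Mgll was lower in Cre than in ctrl (-1.67 ± 0.26, limma adjusted p = 0.000174), higher in Cre_NFIA than in Cre (1.86 ± 0.26, limma adjusted p = 5.64e-05) and lower in Cre_deltapro#3 than in Cre (-1.80 ± 0.26, limma adjusted p = 0.000934).

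The co-activator and the inhibitor of adipose triglyceride lipase both followed the lipase, but not to the same extent. Abhd5, the gene of the co-activator (chromosome 9, 122260726 to 122290642, plus strand), was at 87.1, 94.0 and 97.2 FPKM in ctrl, 39.0, 44.2 and 27.0 FPKM in Cre, 105, 102 and 104 FPKM in Cre_NFIA and 15.6, 18.9 and 21.2 FPKM in Cre_deltapro#3 at day 7, with no overlap between groups and with Cre_NFIA highest. It was lower in Cre than in ctrl (-1.34 ± 0.15, limma adjusted p = 1.29e-05), higher in Cre_NFIA than in Cre (1.503 ± 0.15, limma adjusted p = 3.26e-06) and lower in Cre_deltapro#3 than in Cre (-0.93 ± 0.15, limma adjusted p = 0.00152). G0s2, the gene of the inhibitor (chromosome 1, 195098355 to 195099382, minus strand), had the highest FPKM of the 9 genes at day 7. It reached 1029, 1370.1 and 1164 FPKM in ctrl, 433, 544 and 247 FPKM in Cre, 1185, 1153 and 1136 FPKM in Cre_NFIA and 41.8, 106 and 99.0 FPKM in Cre_deltapro#3. Only ctrl and Cre_NFIA overlapped. Its changes were -1.60 for Cre relative to ctrl (SE 0.33, limma adjusted p = 0.00126), 1.58 for Cre_NFIA against Cre (SE 0.33, limma adjusted p = 0.00125) and -2.33 for Cre_deltapro#3 against Cre (SE 0.33, limma adjusted p = 0.000872). In the last of these only 6 of the 12640 genes tested had a lower log2 fold change.

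Ratios within a library showed the balance of these genes at the mRNA level. G0s2 per Pnpla2 was 2.31, 2.46 and 2.31 in ctrl, 2.98, 2.85 and 2.72 in Cre, 2.34, 2.58 and 2.34 in Cre_NFIA and 2.13, 2.30 and 2.08 in Cre_deltapro#3 at day 7. The libraries labelled Cre were above those of every other group, and ctrl and Cre_NFIA overlapped. Those of Cre_deltapro#3 were the lowest, narrowly below ctrl and Cre_NFIA. All ratios lay between 2.08 and 2.98 at day 7, a far narrower range than that of either gene alone. Abhd5 per Pnpla2 was 0.195, 0.169 and 0.192 in ctrl, 0.268, 0.232 and 0.297 in Cre, 0.208, 0.229 and 0.213 in Cre_NFIA and 0.795, 0.409 and 0.445 in Cre_deltapro#3, with no overlap between the groups. For both ratios the exact two-sided permutation p was 0.1 in Cre against ctrl, Cre_NFIA against Cre and Cre_deltapro#3 against Cre, which is the smallest value that 3 against 3 libraries can give. At day 0 the balance was the other way round in ctrl, with 2.74, 3.04 and 2.21 for Abhd5 per Pnpla2 and 0.151, 0.118 and 0.200 for G0s2 per Pnpla2.

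**Figure D2:**
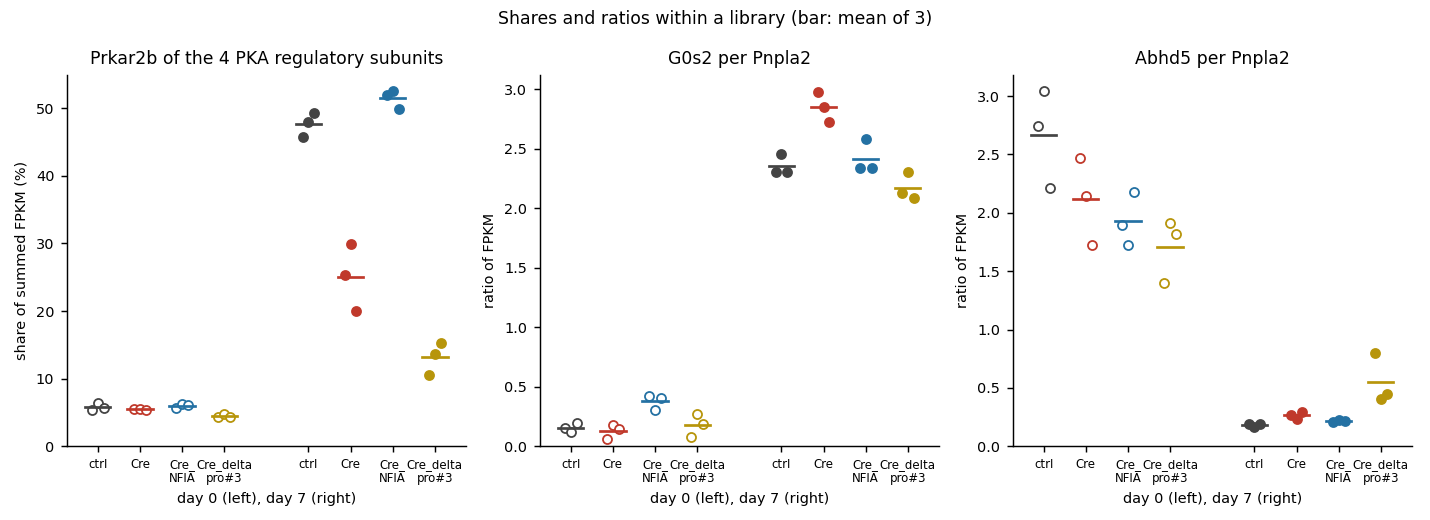
Share of Prkar2b in the summed FPKM of the 4 regulatory subunit genes of protein kinase A (PKA) and the ratios of G0s2 and Abhd5 to Pnpla2, with 1 point per library (open at day 0, filled at day 7) and a bar at the mean of 3. At day 7 the Prkar2b share is 45.7 to 52.6% in ctrl and Cre_NFIA and 10.5 to 15.2% in Cre_deltapro#3, while G0s2 per Pnpla2 stays between 2.08 and 2.98.

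Aqp7, the gene of the glycerol channel (chromosome 4, 40980107 to 40995172, minus strand), ended the path with a pattern close to that of Adrb3. Its values were 49.6, 57.1 and 55.8 FPKM in ctrl, 10.8, 15.02 and 6.42 FPKM in Cre, 53.2, 51.0 and 55.2 FPKM in Cre_NFIA and 1.26, 3.01 and 3.75 FPKM in Cre_deltapro#3 at day 7. The ctrl and Cre_NFIA libraries overlapped, Cre lay below them and Cre_deltapro#3 lower still. The mean was 5.03-fold lower in Cre than in ctrl (-2.30 ± 0.28, limma adjusted p = 2.37e-05), 4.94-fold higher in Cre_NFIA than in Cre (2.27 ± 0.28, limma adjusted p = 1.78e-05) and 4.03-fold lower in Cre_deltapro#3 than in Cre (-1.68 ± 0.28, limma adjusted p = 0.00172).

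Counted over the members, 8 of 9 were lower in Cre than in ctrl at day 7 and 0 were higher, where 22.7% of all genes tested were lower. Of the 8, 6 were lower by at least 3-fold, where 1.27% of all genes were. The median log2 fold change over the 9 was -1.67, beside 0.09 over all genes and -1.63 over the 9 adipocyte markers tested, all of which were lower. In Cre_NFIA against Cre 8 of 9 were higher, where 27.0% of all genes were, and 5 of them by at least 3-fold, where 2.13% were. The median was 1.77, beside -0.06 over all genes and 1.48 over the adipocyte markers, of which 9 of 9 tested were higher. In Cre_deltapro#3 against Cre 8 of 9 were lower, where 10.0% of all genes were, and 6 of them by at least 3-fold, where 0.593% were, with a median of -1.68 beside 0.02 over all genes and -2.17 over the adipocyte markers. Adrb1 was the gene that did not pass in these 3 comparisons. These comparisons share the libraries labelled Cre, so their directions are not independent of one another. The direct comparison of Cre_deltapro#3 with Cre_NFIA gave 9 of 9 lower, where 28.9% of all genes were, and 8 of them by at least 3-fold, where 4.60% were. Adrb1 is among the 9. It passed the filter through libraries of ctrl and Cre_NFIA and none of Cre_deltapro#3, so its call is no support here.

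**Figure D3:**
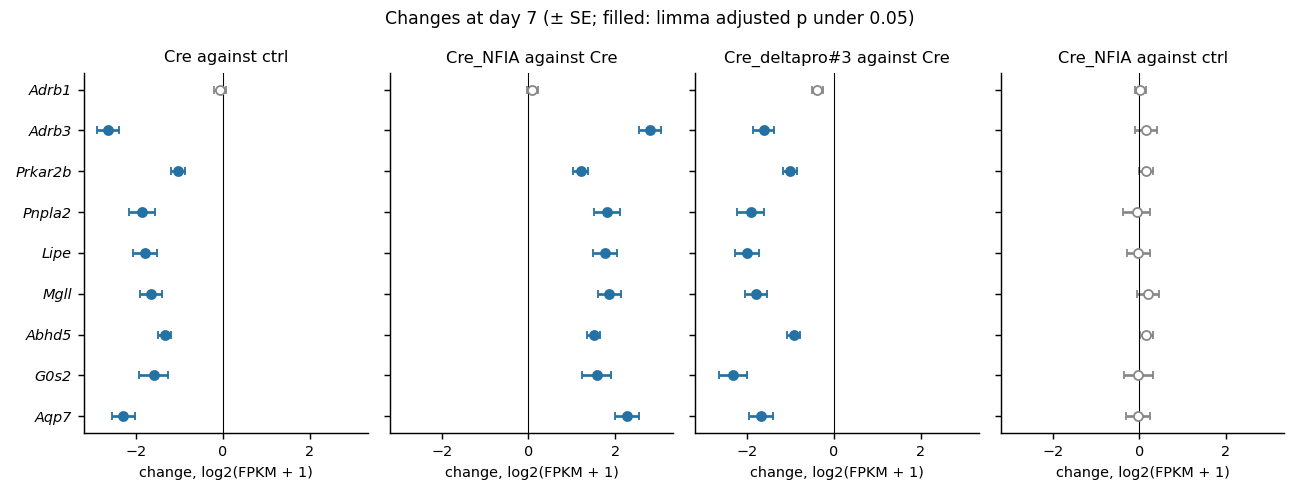
Log2 fold change at day 7 on the log2(FPKM + 1) scale with its standard error for the 9 genes in 4 comparisons, filled where the limma adjusted p was under 0.05. The 8 genes other than Adrb1 lie between -2.65 and -1.04 in Cre against ctrl, between 1.20 and 2.80 in Cre_NFIA against Cre and between -2.33 and -0.93 in Cre_deltapro#3 against Cre, and all 9 lie between -0.06 and 0.20 in Cre_NFIA against ctrl.

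Cre_NFIA and ctrl stood close together. No member passed at day 7 (0 of 9 by limma, 0 at an unadjusted p under 0.05 and 0 by limma voom on the recovered reads), where 8.81% of all genes were higher and 9.15% lower. The log2 fold changes ran from -0.06 in Pnpla2 to 0.20 in Mgll, and their 95% intervals from a lowest bound of -0.75 in G0s2 to a highest bound of 0.77 in Mgll. In Adrb3, Mgll, Abhd5 and Prkar2b the Cre_NFIA libraries all lay above the ctrl libraries, where 21.5% of all genes tested had Cre_NFIA wholly above ctrl, and in the other 5 the groups overlapped. These intervals and p-values rest on a spread shared by all groups of day 7. The SD as a percentage of the mean, in members other than Adrb1, was 5.02 to 14.5 in ctrl and 1.42 to 6.36 in Cre_NFIA. It was 22.3 to 40.0 in Cre and 15.1 to 47.9 in Cre_deltapro#3. Mgll passed when only ctrl and Cre_NFIA were fitted. Over all alternatives the lowest limma adjusted p was 0.0481 in Mgll, 0.0668 in Abhd5 and 0.0684 in Prkar2b.

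The spread within a group was shared by the members. In the libraries labelled Cre at day 7, replicate 3 was the lowest for each of the 8 genes other than Adrb1, and the highest library was 1.58 to 2.36 times the lowest. In Cre_deltapro#3 replicate 1 was the lowest for the same 8 genes, with 1.36 to 2.98 times between lowest and highest, whereas in Cre_NFIA the highest was 1.03 to 1.13 times the lowest. The summed adipocyte markers were lowest in the same libraries, 4446 FPKM in Cre replicate 3 and 851 FPKM in Cre_deltapro#3 replicate 1. Without both of these libraries each of the 8 genes still passed in Cre against ctrl, Cre_NFIA against Cre and Cre_deltapro#3 against Cre. As deviations from the group means over the 12 libraries of day 7, the 28 pairs of these 8 genes had Pearson correlations of 0.881 to 0.992, and Adrb1 with each of them 0.356 to 0.492. These values are a description of libraries that share their scaling and carry no p.

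Before differentiation the members were low in every cell type. In ctrl at day 0 Abhd5 was at 9.46 ± 0.407, Prkar2b at 8.03 ± 1.36, Lipe at 4.30 ± 0.571 and Pnpla2 at 3.60 ± 0.438 FPKM, while Mgll was at 0.530 ± 0.149, G0s2 at 0.574 ± 0.221, Adrb1 at 0.442 ± 0.228 and Adrb3 at 0.211 ± 0.134 FPKM (SD, n = 3). Adrb3 had 1 to 11 reads a library at day 0. Aqp7 had no read in 5 of the 12 libraries of day 0 and at most 0.124 FPKM in the others. Cre against ctrl gave 0 of 9 at day 0 by limma, with 0 at an unadjusted p under 0.05 and 0 by limma voom, where 1.63% of all genes were higher and 1.70% lower. Mgll was lower in Cre than in ctrl without overlap (-0.28 ± 0.13, limma adjusted p = 0.258), on few reads, and did not pass.

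Full-length NFIA went with higher levels of some members before the cocktail was given. In Cre_NFIA against Cre at day 0, 4 of 9 were higher, where 14.7% of all genes were. Adrb1 is 1 of the 4 and passed the filter on low values in 3 libraries, Cre_NFIA replicate 2 of day 0, ctrl replicate 2 of day 7 and Cre_NFIA replicate 2 of day 7, so its call is no support here or in the comparison of Cre_deltapro#3 with Cre_NFIA at day 7. G0s2 was at 0.233, 0.767 and 0.594 FPKM in Cre and 2.56, 1.88 and 2.32 FPKM in Cre_NFIA (1.10 ± 0.19, limma adjusted p = 0.00140), and Pnpla2 at 3.73, 4.19 and 4.15 FPKM and 6.01, 6.12 and 5.73 FPKM (0.47 ± 0.09, limma adjusted p = 0.00270). Both pairs of groups were apart. G0s2 rested on few reads, 2 to 5 a library in Cre and 15 to 23 in Cre_NFIA. Abhd5 was at 9.22, 8.996 and 7.16 FPKM in Cre and 11.4, 10.5 and 12.5 FPKM in Cre_NFIA (0.40 ± 0.09, limma adjusted p = 0.00908), and Adrb1 at 0.198, 0.571 and 0.1005 FPKM and 0.979, 1.15 and 0.712 FPKM (0.60 ± 0.16, limma adjusted p = 0.0154). Adrb1 in Cre_NFIA at day 0 overlapped with ctrl at day 7. Mgll narrowly missed the threshold (0.37 ± 0.13, limma adjusted p = 0.0567). The call of Adrb1 was lost without Cre replicate 3 or without Cre_NFIA replicate 2 (limma adjusted p = 0.0581 and 0.0606), and that of Pnpla2 when all 24 libraries were fitted together (limma adjusted p = 0.151). Over all alternatives the limma adjusted p ran from 0.00458 to 0.0606 for Adrb1 and from 0.00144 to 0.151 for Pnpla2. Of the 9 adipocyte markers tested, 3 were higher in this comparison, and the markers summed to 82.7 to 100.99 FPKM in Cre and 105 to 111 FPKM in Cre_NFIA, whose part in these values was not tested.

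In Cre_deltapro#3 against Cre at day 0, 1 of 9 members was higher, close to the share of all genes that were higher (9.26%). By this count the members were not set apart from genes in general. Pnpla2 was at 6.08, 4.94 and 5.36 FPKM in Cre_deltapro#3 (0.36 ± 0.09, limma adjusted p = 0.0181). This call was lost when Cre replicate 1, Cre_deltapro#3 replicate 1 or Cre_deltapro#3 replicate 3 was left out (limma adjusted p = 0.0568, 0.0746 and 0.0503) and when all 24 libraries were fitted together (limma adjusted p = 0.324). Of the 9 adipocyte markers tested 1 was higher and 2 were lower. The limma adjusted p of Pnpla2 ran from 0.0117 to 0.324 over all alternatives. G0s2 was at 0.476, 1.35 and 1.02 FPKM, between its levels in Cre and Cre_NFIA and overlapping with Cre, and did not pass. Prkar2b was lower than in Cre without overlap (-0.24 ± 0.10, limma adjusted p = 0.125) and did not pass either.

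From day 0 to day 7 all 9 members rose in ctrl, where 32.9% of all genes were higher, and 8 of them by at least 3-fold, where 5.64% were. All 9 also rose in Cre, where 30.0% of all genes were higher, and 8 of them by at least 3-fold, where 2.26% were. In Cre_NFIA 8 rose, where 31.8% of all genes were higher, and all 8 by at least 3-fold, where 5.78% were. In Cre_deltapro#3 8 rose, where 24.5% were higher, and 5 of them by at least 3-fold, where 1.14% were. Adrb3, Mgll and Aqp7 reached 1 FPKM in 12 libraries each, all of day 7. They thus passed the filter only through the day in which they were high. Adrb1 passed it through libraries in which it was higher, among them ctrl replicate 2 of day 7. The calls of these genes are counted here but are no support for the rise. G0s2 rose most on the log2(FPKM + 1) scale in each cell type, by 9.56 in ctrl, 8.004 in Cre, 8.48 in Cre_NFIA and 5.33 in Cre_deltapro#3 (SE 0.28 in each). In Cre_deltapro#3 only 2 of the 12640 genes tested had a higher log2 fold change than G0s2. The smallest rises among the 8 were those of Abhd5 in each cell type, 3.16 in ctrl, 1.97 in Cre, 3.07 in Cre_NFIA and 0.93 in Cre_deltapro#3 (SE 0.13 in each). In Cre_deltapro#3 Adrb1 was the member that did not pass (0.17 ± 0.15, limma adjusted p = 0.415). The adipocyte markers rose too, 9 of 9 tested in each cell type, and their part was not tested.

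Adrb1 rose by 0.40 in ctrl (SE 0.15, limma adjusted p = 0.0238) and by 0.50 in Cre (SE 0.15, limma adjusted p = 0.00947), and did not pass in Cre_NFIA (-0.01 ± 0.15, limma adjusted p = 0.943). Both rises depended on the processing. With quantile normalization they were 0.27 (limma adjusted p = 0.119) and 0.12 (limma adjusted p = 0.548). In ctrl the call was also lost when only these groups were fitted (limma adjusted p = 0.0571) and without ctrl day 0 replicate 2, day 7 replicate 2 or day 7 replicate 3 (limma adjusted p = 0.143, 0.102 and 0.0661), and in Cre without day 0 replicate 3 (limma adjusted p = 0.0582). Over all alternatives the adjusted p ran from 0.0098 to 0.143 in ctrl and from 0.00197 to 0.548 in Cre.

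Whether the rise itself differed between cell types was tested as an interaction in 1 model of all 24 libraries. The rise of 8 of 9 members was smaller in Cre than in ctrl, where 19.5% of all genes had a lower difference, and that of 8 of 9 was smaller in Cre_deltapro#3 than in Cre, where 10.4% had. In Cre_NFIA against Cre the rise of 7 of 9 was larger, where 18.8% had a higher difference. With a difference of at least 3-fold the counts were 4, 5 and 3, where 1.27%, 0.736% and 1.70% of all genes passed in the same direction. Adrb3, Mgll and Aqp7 passed the filter only through libraries of day 7, so their calls are counted but are no support here either. G0s2, which was already higher in Cre_NFIA at day 0, did not pass in Cre_NFIA against Cre (0.48 ± 0.40, limma adjusted p = 0.343), and neither did Adrb1 (-0.51 ± 0.22, limma adjusted p = 0.0551). Both depended on the processing. Over all alternatives the limma adjusted p ran from 0.00775 to 0.810 for G0s2 and from 0.0137 to 0.326 for Adrb1. With limma voom on recovered reads, Adrb3, Mgll, G0s2 and Aqp7 no longer passed in Cre against ctrl (adjusted p = 0.0627 to 0.596) or in Cre_deltapro#3 against Cre (adjusted p = 0.164 to 0.489), and Mgll and Aqp7 no longer passed in Cre_NFIA against Cre (adjusted p = 0.633 and 0.262). On the voom log2 scale these interactions kept their direction, at -2.37, -0.69, -1.43 and -3.52 for Adrb3, Mgll, G0s2 and Aqp7 in Cre against ctrl, -1.36, -2.23, -3.13 and -1.99 in Cre_deltapro#3 against Cre, and 0.63 for Mgll and 2.22 for Aqp7 in Cre_NFIA against Cre. Mgll in Cre against ctrl and in Cre_NFIA against Cre, and Adrb3 in Cre_deltapro#3 against Cre, were also lost with a pseudocount of 0.1 (limma adjusted p = 0.125, 0.131 and 0.0555). These 4 genes had few reads at day 0. Their lowest adjusted p over the alternatives was 4.64e-09 in Adrb3, 1.75e-05 in Mgll, 0.000766 in G0s2 and 6.53e-08 in Aqp7 for Cre against ctrl, 8.81e-06, 3.55e-05, 1.15e-05 and 1.70e-05 for Cre_deltapro#3 against Cre, and 3.98e-06 in Mgll and 3.81e-08 in Aqp7 for Cre_NFIA against Cre.

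Other genes of the pathway were counted from 4 lists of 43 genes in all, of which 40 were tested. In Cre_NFIA against Cre at day 7, 23 of the 40 were higher and 13 lower, where 27.0% of all genes tested were higher and 35.9% lower. In Cre_deltapro#3 against Cre 17 of the 40 were lower, where 10.0% of all genes were. Glycerol handling and the lipase partners and other lipid hydrolases moved in the direction of the members: 3 of 3 and 11 of 12 genes tested were higher in Cre_NFIA than in Cre, with medians of 2.52 and 1.37 beside -0.06 over all genes. The second of these lists shares Plin1, Cidec and Fabp4 with the adipocyte markers. Of the receptors and G proteins 5 of 10 were higher and 4 lower (median 0.13), and of the cAMP and protein kinase A genes 4 of 15 were higher and 9 lower (median -0.51).

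Among the other lipid hydrolases, the carboxylesterase genes Ces1d and Ces1f and Pnpla3 had larger log2 fold changes than the 3 lipases in Cre_NFIA against Cre at day 7. Ces1d, whose product hydrolyses triglyceride in liver and fat, was at 32.1, 40.0 and 42.1 FPKM in ctrl, 3.22, 4.22 and 1.93 FPKM in Cre, 151, 157 and 151 FPKM in Cre_NFIA and 0.741, 2.10 and 2.005 FPKM in Cre_deltapro#3 at day 7 (Cre_NFIA against Cre, 5.26 ± 0.23, limma adjusted p = 9.98e-09). Cre_NFIA was above ctrl here, unlike for Pnpla2, Lipe and Aqp7. Ces1f (3.92 ± 0.18, limma adjusted p = 1.53e-08) and Pnpla3, a relative of Pnpla2 (3.69 ± 0.17, limma adjusted p = 1.36e-08), were higher in Cre_NFIA than in Cre, and in Cre_deltapro#3 against Cre Pnpla3 was lower (-1.12 ± 0.17, limma adjusted p = 0.00117) while Ces1d and Ces1f did not pass. Reads of neighbouring carboxylesterase genes that align to more than 1 place were not counted, so these values are uncertain. In glycerol handling Gpd1, which supplies glycerol 3-phosphate for triglyceride synthesis, rose with Cre_NFIA (2.52 ± 0.36, limma adjusted p = 6.95e-05), as did Pck1, the enzyme of glyceroneogenesis (3.43 ± 0.17, limma adjusted p = 2.55e-08), and glycerol kinase, Gk (1.24 ± 0.12, limma adjusted p = 2.28e-06). Plin1, the gene of perilipin, was at 438, 516 and 453 FPKM in ctrl, 176, 233 and 116 FPKM in Cre, 481, 452 and 485 FPKM in Cre_NFIA and 16.8, 51.6 and 56.5 FPKM in Cre_deltapro#3, and is counted among the adipocyte markers as well.

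Receptors that inhibit lipolysis did not share 1 order of levels. Adora1 (the adenosine A1 receptor), Hcar1 (the lactate receptor) and Hcar2 (the receptor of hydroxybutyrate and niacin) were higher in Cre_NFIA than in Cre by 1.11, 0.93 and 0.64 (limma adjusted p = 0.00118, 0.000129 and 0.00268). They were lower in Cre_deltapro#3 than in Cre by a log2 fold change of -1.13, -1.11 and -1.34 (limma adjusted p = 0.00610, 0.000671 and 0.000369). Adra2a, the alpha-2A adrenergic receptor, which also inhibits lipolysis, was too low to be tested and had the opposite order, at 0.236, 0.125 and 0.205 FPKM in ctrl, 0.351, 0.374 and 0.548 FPKM in Cre, 0.0392, 0.169 and 0.0900 FPKM in Cre_NFIA and 0.879, 0.718 and 0.705 FPKM in Cre_deltapro#3 at day 7. Npr3, the clearance receptor of natriuretic peptides (-0.72 ± 0.07, limma adjusted p = 4.44e-06), Gnai2 (-0.41 ± 0.05, limma adjusted p = 2.15e-05) and Gnas (-0.30 ± 0.04, limma adjusted p = 8.83e-05), which encode an inhibitory and the stimulatory G protein alpha subunit, were lower in Cre_NFIA than in Cre. Pde3b, the phosphodiesterase through which insulin lowers cAMP in fat cells, was higher (1.18 ± 0.18, limma adjusted p = 0.000101), as were Adcy6 (0.78 ± 0.06, limma adjusted p = 6.78e-07) and the anchoring protein gene Akap1 (0.57 ± 0.07, limma adjusted p = 2.41e-05). Pde4a (-1.35 ± 0.09, limma adjusted p = 1.42e-07), Prkar1b (-1.33 ± 0.13, limma adjusted p = 2.35e-06) and Adcy3 (-1.21 ± 0.09, limma adjusted p = 3.37e-07) were lower. The last 3 did not pass in Cre_deltapro#3 against Cre, and neither did Npr3, Gnai2 and Gnas. All of these genes kept their direction in Cre_NFIA against Cre under each alternative scaling.

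**Figure D4:**
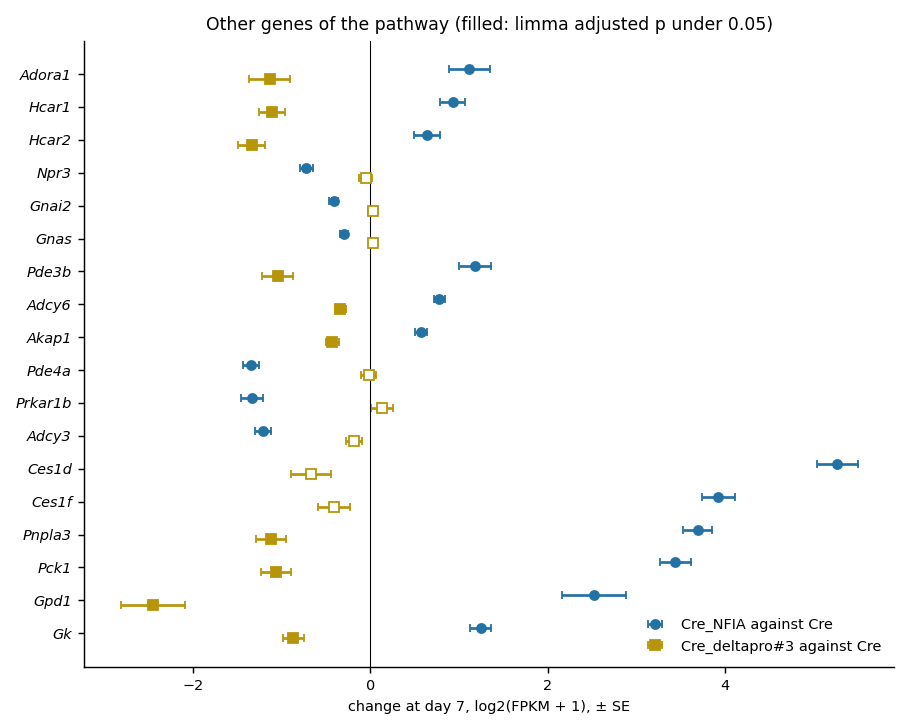
Log2 fold change at day 7 on the log2(FPKM + 1) scale, with its standard error, of the genes named from the 4 pathway lists, for Cre_NFIA against Cre (circles) and Cre_deltapro#3 against Cre (squares), filled where the limma adjusted p was under 0.05. Ces1d has the largest rise, 5.26, and the 6 genes that were lower in Cre_NFIA, such as Pde4a at -1.35, have open squares near 0.

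The genes most like each member over the 24 libraries were found by the Pearson correlation of log2(FPKM + 1), a description in which day and cell type carry most of the variation. For Adrb3 they were Hsd17b4 (r = 0.998) and Lonp2 (r = 0.998), for Prkar2b Sort1 and Nr1h3 (r = 0.996 for both), for Pnpla2 Agpat2 (r = 0.999) and Lgals12 (r = 0.998), and for Lipe Adcy5 and A530016L24Rik (r = 0.999 for both). For Mgll they were Gpd1 and Tusc5 (r = 0.998 for both), for Abhd5 Arl4a (r = 0.998) and Idh3a (r = 0.997), for G0s2 Adipoq and Plin1 (r = 0.998 for both), and for Aqp7 Plbd1 (r = 0.999) and Pcx (r = 0.998). Adrb1 stood apart, with Wnt11 (r = 0.866) and Rgs2 (r = 0.838) as the nearest. Among the 28 pairs of the 8 other members r was 0.944 to 0.997, and between Adrb1 and each of them 0.584 to 0.634.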

How the data were processed

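The 24 deposited tables list FPKM for 24825 genes. From stranded mRNA libraries the authors aligned reads with STAR 2.5.3a to mm9, kept uniquely aligned reads and counted those on the matching strand per gene, which they divided by gene length and library total to give FPKM. Reads that align to several places were thereby lost. Read numbers were recovered from the steps of the FPKM values (100% of values within 0.05 of a whole read), and library totals from them.

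Groups and replicate numbers came from the sample titles. The 9 members, the pathway and marker lists and the tests were chosen with earlier results of these data known. Values were transformed to log2(FPKM + 1), genes with at least 1 FPKM in at least 3 libraries were kept (12640), and limma 3.58.1 (R 4.3.3) fitted the group means, with its variance prior set to follow mean expression. The 12 libraries of a day were used within a day and all 24 for day and interaction effects. Tests were two-sided, with Benjamini-Hochberg adjustment over all genes tested. Shares were compared with exact permutation tests in scipy 1.17.1. The script was tested on simulated data.

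All 9 members were tested and counted in every comparison, and values are printed for some of them in each. Of the pathway lists the genes named are up to 3 a list in each direction with the largest change that passed in Cre_NFIA against Cre at day 7. Also named are the genes of the shares, Nfia as a check, and for each member the 2 genes with the highest correlation over the 24 libraries. Plin1, Prkaca, Prkacb, Prkar1a, Adra2a, Acta1, Des, Cox8b and Ppargc1a were also named after their values were seen. 1 gene of the pathway lists, with the shares that need it, is not reported here. Replicate libraries differed by more than sampling noise (chi-square per degree of freedom 2.17 to 15.1), so each counted as 1 replicate. Alternatives were pseudocounts of 0.1 and 5, no filter, a filter at mean FPKM 5, median-of-ratios and quantile scaling, other sets of libraries in the fit, the replicate block, no trend, voom on recovered reads, other thresholds and each library left out. Leaving out the lowest Cre and the lowest Cre_deltapro#3 library of day 7 together was added after seeing the data.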

Additional observations from a re-analysis of the deposited data

Results flagged for a closer look

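The rise from day 0 to day 7 differed between cell types for the members below, by the interaction term of the limma model over all 24 libraries (log2 scale, adjusted p under 0.05). Adrb3, Mgll and Aqp7 passed the filter only through libraries of day 7, so their calls are listed but are no support. For Cre against ctrl the difference of the rises was -2.60 in Adrb3, -2.32 in Aqp7, -2.002 in Pnpla2, -1.61 in Lipe, -1.56 in G0s2, -1.39 in Mgll, -1.19 in Abhd5 and -0.96 in Prkar2b. For Cre_NFIA against Cre it was 2.82 in Adrb3, 2.24 in Aqp7, 1.64 in Lipe, 1.497 in Mgll, 1.34 in Pnpla2, 1.12 in Prkar2b and 1.10 in Abhd5. For Cre_deltapro#3 against Cre it was -2.67 in G0s2, -2.28 in Pnpla2, -2.11 in Lipe, -1.90 in Mgll, -1.71 in Aqp7, -1.51 in Adrb3, -1.05 in Abhd5 and -0.77 in Prkar2b. The adipocyte markers moved with them, 9 of 9 tested with a smaller rise in Cre than in ctrl and in Cre_deltapro#3 than in Cre, and 7 of 9 with a larger rise in Cre_NFIA than in Cre, and their part in these differences was not tested.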

How the results depend on the processing

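The 32 day 7 changes of the 8 genes other than Adrb1, in Cre against ctrl, Cre_NFIA against Cre and Cre_deltapro#3 against Cre and against Cre_NFIA, kept their direction and passed in 576 of 576 values under the alternatives, with a highest limma adjusted p of 0.0342. A 3-fold threshold gave member counts of 5 in Cre_NFIA against Cre at day 7, 0 in that comparison and in Cre_deltapro#3 against Cre at day 0, 5 for the rise in Cre_deltapro#3, and 4, 3 and 5 for the interactions of Cre against ctrl, Cre_NFIA against Cre and Cre_deltapro#3 against Cre. With limma voom on recovered reads the first and last of these interactions held 4 members each, the lost calls being genes with few reads at day 0 (Adrb3, Mgll, G0s2 and Aqp7), while day 7 calls were kept. Fitting only the groups compared gave 1 member (Mgll) in Cre_NFIA against ctrl. In Cre_deltapro#3 against Cre at day 0 the count was 0 with all 24 libraries or at an adjusted p under 0.01, and 0 to 1 on leaving out a library. Signs turned only where a value had not passed. For member results that had not passed, 14 values under the alternatives passed in the same direction. The interaction of G0s2 in Cre_NFIA against Cre was -0.42 at a pseudocount of 0.1 and -0.54 with voom, and its highest value over the alternatives was 1.17. At day 0 Cre_NFIA against Cre gave 0.18 for Adrb3 with voom and -0.041 for Aqp7 with quantile normalization. Leaving out libraries gave -0.10 to 0.054 for Adrb3 and -0.012 to 0.24 for Lipe in that comparison, and for Adrb1 at day 7 -0.18 to 0.012 in Cre against ctrl and -0.0036 to 0.17 in Cre_NFIA against Cre. Median-of-ratios scaling moved the median of all genes in Cre against ctrl at day 7 from 0.09 to -0.01, and the genes higher and lower from 4563 and 2867 to 3462 and 3881, and in Cre_NFIA against Cre from 3418 and 4540 to 4207 and 3718.

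Same-numbered libraries deviated together with correlations of -0.274 to 0.201 over genes, so the numbers were not taken to pair the samples. With the replicate number as a block 8 members passed in Cre against ctrl, 8 in Cre_NFIA against Cre and 8 in Cre_deltapro#3 against Cre at day 7, and 5 in Cre_NFIA against Cre at day 0, where Mgll was added. Of the 12640 genes tested 2909 were lower, 3444 higher, 1278 lower and 1798 higher in these comparisons under the block. Depth limits Adrb1 and the day 0 values of Adrb3, Aqp7, Mgll and G0s2, which rest on few reads.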
